A study of Mus musculus with 4 samples.

Results

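The Frizzled receptors are the 10 genes Fzd1 to Fzd10, taken from the deposited table by their symbols. All 10 were found, as 1 row each, among the 48709 genes of the table. The RNA was that of left lung lobes, taken from C57BL/6 mouse pups on postnatal day 1. There were 2 mice of the genotype RykSL/SL, called mutant here, and 2 wild-type mice, none of them treated. Each library is a separate mouse, so n = 2 lungs per genotype throughout. Ryk encodes a receptor for WNT ligands, and how the SL allele alters it is not given in the labels. The comparison asks how the lung transcriptome differs between these genotypes.

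Frizzled proteins are the main receptors for WNT ligands. An outer cysteine-rich domain binds the lipid that WNT proteins carry, and a bundle of membrane-spanning helices passes the signal to the cytoplasmic protein Dishevelled. Together with the co-receptors LRP5 and LRP6 they stabilize beta-catenin, and with RYK, ROR1, ROR2 or PTK7 they take part in signalling that orients cells and their movements. In the lung, WNT signals pass between mesenchyme, epithelium and vessels while airways branch and alveoli form. The family has 4 branches by sequence, made up of Fzd1, Fzd2 and Fzd7, of Fzd5 and Fzd8, of Fzd4, Fzd9 and Fzd10, and of Fzd3 and Fzd6.

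The coding sequences of GENCODE release M21 (GRCm38) were compared within and between these known branches. Identity, counted over the shorter coding sequence after global alignment, was 79.2% between Fzd1 and Fzd2, 77.5% between Fzd2 and Fzd7, and 75.1% between Fzd5 and Fzd8. It lay between 58.9% and 79.2% for the 8 pairs within a branch and between 44.6% and 64.0% for the 37 pairs between branches. These ranges overlapped, with Fzd3 and Fzd6 of the same branch at 58.9% and Fzd2 and Fzd8 of different branches at 64.0%. In spite of this likeness, no stretch of 50 bases of Fzd1, Fzd2, Fzd7, Fzd8, Fzd9 or Fzd10 transcripts occurred in transcripts of another gene. For Fzd3, Fzd4 and Fzd6 the share was 0.0941%, 0.15% and 2.12%. For Fzd5 it was 16.4%, and a gene model on the opposite strand, Gm38058, overlapped 1233 of its exonic bases. Sequences were matched on either strand, so this overlap and the share of Fzd5 are not separate. Gm38058 had values of 1 and 4 in the mutant lungs, against 0 and 0 in the wild type. Fzd5 had 427 or more in every lung. How reads from the overlap were counted is not given, so the value of Fzd5 is uncertain.

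All 10 coding sequences held, once each, the motif by which Frizzled tails bind Dishevelled, a lysine and a threonine followed after a gap by a tryptophan. It is shown for the 5 genes on which the results turn, as bases of the coding strand 5′ to 3′ from GENCODE, with the codons of these 3 residues in capitals. The gap is written differently in every gene, and the capitals differ only in silent positions.
Fzd1: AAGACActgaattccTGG
Fzd2: AAGACActgcactcgTGG
Fzd7: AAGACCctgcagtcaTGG
Fzd4: AAAACTcttcacacgTGG
Fzd5: AAGACTctggagtctTGG

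The promoter windows show the start regions of 2 genes that lay lower in the mutant lungs, Fzd1 and Fzd7, and 2 that lay higher, Fzd4 and Fzd5. RefSeq (GRCm38.p6) gave a window for 6 of the 10 genes. Each sequence is the 250 bases before the RefSeq start, 5′ to 3′ on the strand of the gene, with the GC box GGGCGG in capitals on either strand and overlapping matches joined.
Fzd1, chr5:4758217-4758466, minus strand: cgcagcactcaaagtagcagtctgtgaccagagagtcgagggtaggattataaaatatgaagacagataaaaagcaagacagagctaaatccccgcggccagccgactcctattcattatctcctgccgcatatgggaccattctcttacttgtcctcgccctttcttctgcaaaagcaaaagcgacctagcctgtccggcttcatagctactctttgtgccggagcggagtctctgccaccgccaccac
Fzd7, chr1:59481897-59482146, plus strand: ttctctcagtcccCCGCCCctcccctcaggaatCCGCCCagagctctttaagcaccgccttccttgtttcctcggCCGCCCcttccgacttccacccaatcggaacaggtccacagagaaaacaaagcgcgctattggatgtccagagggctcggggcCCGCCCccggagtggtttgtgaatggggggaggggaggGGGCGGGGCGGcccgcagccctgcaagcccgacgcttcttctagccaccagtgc
Fzd4, chr7:89404116-89404365, plus strand: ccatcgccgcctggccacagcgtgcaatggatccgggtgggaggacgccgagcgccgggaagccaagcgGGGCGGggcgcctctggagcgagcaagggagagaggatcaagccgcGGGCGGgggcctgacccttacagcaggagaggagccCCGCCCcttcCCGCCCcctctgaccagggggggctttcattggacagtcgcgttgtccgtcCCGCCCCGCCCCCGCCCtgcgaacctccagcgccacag
Fzd5, chr1:64737751-64738000, minus strand: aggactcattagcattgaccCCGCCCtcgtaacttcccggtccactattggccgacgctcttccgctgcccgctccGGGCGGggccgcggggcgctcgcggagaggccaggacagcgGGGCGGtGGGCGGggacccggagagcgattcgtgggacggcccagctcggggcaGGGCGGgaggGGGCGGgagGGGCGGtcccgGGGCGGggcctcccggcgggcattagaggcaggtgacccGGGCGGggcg

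Matches were counted on both strands. The GC box occurred 0 times in the Fzd1 window, 6 times in that of Fzd7, 7 times in that of Fzd4 and 9 times in that of Fzd5, overlapping matches included. Of all 32851 windows of the table, 32.7% held it. The TATA box TATAAA occurred once, in Fzd1, and in 12.4% of all windows. The CCAAT box (33.8% of all windows) was found 2 times in Fzd7 and once each in Fzd4 and Fzd5. On either strand none of these 4 windows held the TCF/LEF core CTTTGAT (3.21% of all windows), the clock factor E box CACGTG (6.02%) or the steroid receptor core element AGAACA (16.1%). The GC content was 51.2% in Fzd1, 65.2% in Fzd7, 72.8% in Fzd4 and 76.4% in Fzd5, with a median of 52.4% over all windows. In the windows of Fzd9 and Fzd10, which are not printed, it was 76.4% each, with 1 GC box each. A link between these windows and the differences between genotypes was not tested.

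The values are read counts per gene that the authors had scaled between libraries, and their totals per library lay between 18658239 and 19987634. Mutant replicate 1 stood apart in sex-linked RNA, with 24836 for Xist against 9 in mutant replicate 2 and 7 and 23 in the wild type, and 56 for Ddx3y, a Y-linked gene, against 3769 in mutant replicate 2 and 2328 and 2197 in the wild type. Its part in the Frizzled values was not tested. The mutant lungs were also less alike (SD of the log2 difference over genes 0.60) than the wild-type lungs (0.314). Mutant replicate 1 was about as far from the wild-type lungs (0.61 and 0.575) as from mutant replicate 2. Mutant replicate 2 lay farther from the wild-type lungs (0.757 and 0.744). Ryk itself stood at 2757 and 2203 in the mutant lungs, against 2528 and 2525 in the wild type (log2 fold change -0.04, 95% interval -0.43 to 0.35). Markers of lung epithelium, endothelium and mesenchyme were present in every library. Markers of cardiac muscle summed to 1890 and 2201 in the mutant lungs, against 3993 and 4146 in the wild type.

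The mutant lungs held less Fzd1, Fzd2, Fzd7 and Fzd8 transcript and more Fzd4 and Fzd5 transcript than either wild-type lung, and none of these differences passed the test over all genes. The branch of Fzd1, Fzd2 and Fzd7 stood at about 0.5 to 0.6 of its wild-type level, and Fzd4 and Fzd5 at about 1.4 times theirs. Fzd3, Fzd6 and Fzd10 overlapped between genotypes, and Fzd9 had values of 6 or less. Differences were tested with limma on log2(value + 1) in the 18436 genes whose mean value in the 4 libraries reached 10. A gene was called at a Benjamini-Hochberg adjusted p under 0.05. Of the 9 Frizzled genes that passed the filter on low values 0 were called, where 2.39% of all tested genes were (1.47% higher and 0.917% lower in the mutant). At an unadjusted p under 0.05 the count was 6 of 9, against 20.1% of all tested genes. The genotypes did not overlap in 6 of 9 Frizzled genes, 4 lower and 2 higher in the mutant. Of all tested genes 52.6% did not overlap, 26.9% lower and 25.7% higher, so the count by itself says little about the family. In bulk RNA, fewer cells of a type and less RNA per cell cannot be told apart.

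**Figure D1:**
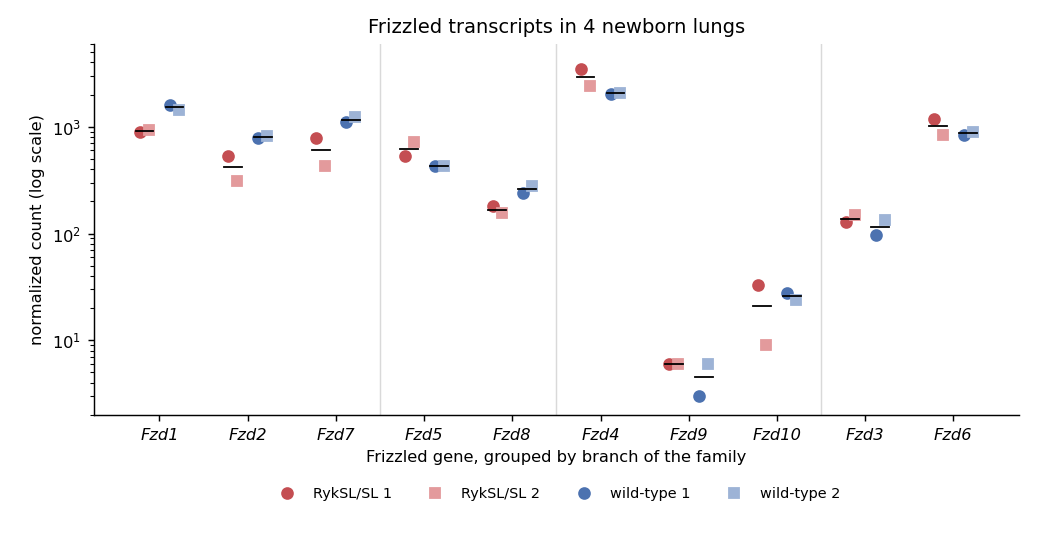
Normalized counts of the 10 Frizzled genes (log axis) in each of the 2 RykSL/SL lungs (red, left) and 2 wild-type lungs (blue, right), with a black line at the mean of each genotype and grey lines between the branches of the family. Fzd1, Fzd2, Fzd7 and Fzd8 lie lower in both mutant lungs and Fzd4 and Fzd5 higher, and Fzd9 stays between 3 and 6.

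Fzd1 (ENSMUSG00000044674, chromosome 5, positions 4753839 to 4758035, GRCm38, an intronless coding gene) is a receptor that can signal through beta-catenin. It had normalized counts of 884 and 927 in the mutant lungs, against 1609 and 1432 in the wild type. Both mutant lungs lay well below both wild-type lungs and close to each other. The log2 fold change was -0.75 (standard error 0.14, 95% interval -1.09 to -0.40, limma, adjusted p = 0.0595), the smallest p of the family. With quantile normalization (adjusted p = 0.0467, with 2.3% of all genes called) or scaling to the library total (adjusted p = 0.0477, with 2.23% called) Fzd1 passed. Over all alternatives tried, its adjusted p ran up to 0.968.

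Fzd2 (ENSMUSG00000050288, chromosome 11, positions 102604396 to 102608058) and Fzd7 (ENSMUSG00000041075, chromosome 1, positions 59482424 to 59486955) are the closest relatives of Fzd1. Fzd2 also transmits WNT5A signals in other cells, and Fzd7 is known from stem cells of the gut. Fzd2 had 534 and 311 normalized counts in the mutant lungs, against 791 and 825 in the wild type. Fzd7 had 792 and 427 in the mutant lungs, against 1107 and 1229 in the wild type. In both genes mutant replicate 2 was the lowest lung, mutant replicate 1 stood between it and the wild type, and the genotypes did not overlap.

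The log2 fold change of Fzd2 was -0.99 (95% interval -1.63 to -0.34, limma, adjusted p = 0.126) and that of Fzd7 was -1.003 (95% interval -1.71 to -0.29, adjusted p = 0.146). The mutant lungs differed from each other by 0.78 in Fzd2 and 0.89 in Fzd7 on the log2 scale, and by -0.07 in Fzd1 (replicate 1 minus replicate 2). Without mutant replicate 1 both passed (log2 fold changes -1.37 and -1.45, each with an adjusted p of 0.0408), in a fit that called 12.9% of all genes. Without mutant replicate 2 they were -0.60 and -0.56 and did not pass. With 1 lung left in the mutant group, that lung is assumed to vary like the wild-type lungs.

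Fzd2 and Fzd7 kept a similar ratio in all 4 lungs. Divided by exon length, Fzd2 stood at 0.834 and 0.901 of Fzd7 in the mutant lungs, against 0.884 and 0.831 in the wild type. The ratio of Fzd1 to Fzd7 was 1.21 and 2.34 in the mutant lungs, against 1.57 and 1.26 in the wild type. Such ratios do not depend on how the libraries were scaled. In normalized counts, which do depend on that scaling, Fzd1 was the member of its branch with a similar level in both mutant lungs.

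Fzd5 and Fzd8, which form a branch of their own and act mostly with LRP5 and LRP6, lay on opposite sides. Fzd5 (ENSMUSG00000045005, chromosome 1, positions 64730558 to 64737751), a receptor of epithelia such as the gut and eye, had 529 and 721 normalized counts in the mutant lungs, against 433 and 427 in the wild type. Fzd8 (ENSMUSG00000036904, chromosome 18) had 180 and 155 in the mutant lungs, against 241 and 278 in the wild type. Neither gene overlapped between the genotypes.

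The log2 fold change was 0.52 for Fzd5 (95% interval 0.06 to 0.98, limma, adjusted p = 0.210) and -0.63 for Fzd8 (95% interval -1.09 to -0.17, adjusted p = 0.151). Without mutant replicate 1 Fzd5 stood at 0.74, and without mutant replicate 2 at 0.30. Fzd8 stayed between -0.74 and -0.52 whichever lung was left out. Per exon length, Fzd5 stood at 1.42 and 2.25 times Fzd8 in the mutant lungs, against 0.869 and 0.743 times Fzd8 in the wild type. The order within the pair rests on the length taken for Fzd8, whose extent in the deposited table (3346 bases) is shorter than in GENCODE M21 (5974 bases). With the longest transcript the ratio was 2.54 and 4.02 in the mutant lungs, against 1.55 and 1.33 in the wild type, again higher in both mutant lungs.

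Fzd4 (ENSMUSG00000049791, chromosome 7, positions 89404355 to 89413134) is the receptor for norrin in blood vessels and a marker of endothelium, and its normalized counts, not divided by length, were the highest of the family. Normalized counts of Fzd4 reached 3468 and 2424 in the mutant lungs, against 2034 and 2068 in the wild type. Mutant replicate 1 was the highest lung, and mutant replicate 2 lay above both wild-type lungs, which nearly coincided. The log2 fold change was 0.50 with a 95% interval of 0.02 to 0.98 (limma, adjusted p = 0.236). It was 0.76 without mutant replicate 2 and 0.24 without mutant replicate 1.

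The other members of the Fzd4 branch were scarce. Fzd10 (ENSMUSG00000081683, chromosome 5, positions 128600844 to 128604093) had 33 and 9 normalized counts in the mutant lungs, against 28 and 24 in the wild type, so the genotypes overlapped and the mutant lungs spanned the wild type (log2 fold change -0.55, 95% interval -2.02 to 0.93). Fzd9 (ENSMUSG00000049551, chromosome 5, positions 135248938 to 135251230), a receptor known from brain and bone, had 6 and 6 in the mutant lungs, against 3 and 6 in the wild type. It did not reach the filter and was not tested.

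Fzd3 and Fzd6 act in the polarity of hair, neural tube and axons. Fzd6 (ENSMUSG00000022297, chromosome 15, positions 39006280 to 39038186) had 1195 and 845 normalized counts in the mutant lungs, against 835 and 903 in the wild type. The high value of mutant replicate 1 was not shared by mutant replicate 2, which lay between the wild-type lungs. Its log2 fold change was 0.21 with a 95% interval of -0.27 to 0.69 (limma, adjusted p = 0.597). Fzd3 (ENSMUSG00000007989, chromosome 14, positions 65201026 to 65262463) had 127 and 149 in the mutant lungs, against 97 and 135 in the wild type. Its log2 fold change was 0.26 with a 95% interval of -0.33 to 0.85 (adjusted p = 0.588), so neither gene differed beyond the spread between lungs, and both intervals span 0.

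**Figure D2:**
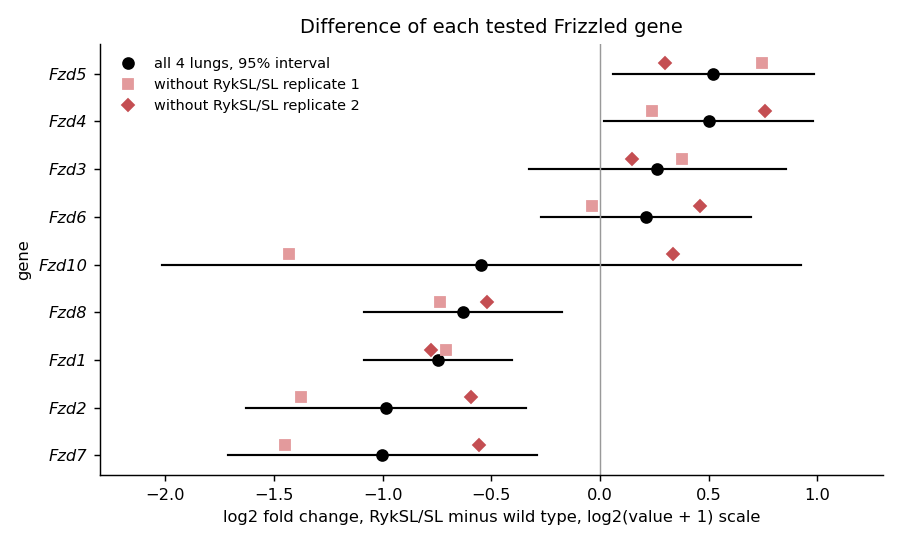
Log2 fold change (RykSL/SL minus wild type, log2(value + 1) scale) of the 9 tested Frizzled genes with the 95% interval from limma, and the same without each mutant lung. The intervals of Fzd1, Fzd2, Fzd7 and Fzd8 lie below 0 and those of Fzd4 and Fzd5 above 0, before adjustment over all genes, and Fzd6 and Fzd10 change sign with the lung left out.

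The make-up of the family differed between the genotypes. Levels of different genes were compared after division by exon length within the deposited extent, in normalized counts per kilobase. Fzd4 made up 34.8% and 31.7% of the Frizzled total in the mutant lungs, against 20.2% and 20.1% in the wild type. Fzd1, Fzd2 and Fzd7 together made up 35.9% and 35.2% in the mutant lungs, against 56.4% and 54.8% in the wild type. The mutant lungs were close to each other in these shares, although they differed in the levels of Fzd4, Fzd2 and Fzd7.

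The level of Fzd4 was thus 0.972 and 0.902 of the sum of Fzd1, Fzd2 and Fzd7 in the mutant lungs, against 0.359 and 0.367 of it in the wild type. The ratio is the same under any scaling between libraries. It was built after the values were known, so it is given without a test. The Frizzled total was 1482 and 1137 per kilobase in the mutant lungs, against 1496 and 1530 in the wild type, with mutant replicate 1 close to the wild type and mutant replicate 2 below it. Fzd6 made up 17.6% and 16.3% in the mutant lungs, against 12.2% and 12.9% in the wild type. Its level per kilobase overlapped between genotypes, at 261.5 and 184.9 in the mutant lungs, against 182.7 and 197.6 in the wild type. A share also depends on the levels of the other genes. Fzd5 made up 5.16% and 9.17% in the mutant lungs, against 4.18% and 4.04% in the wild type.

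**Figure D3:**
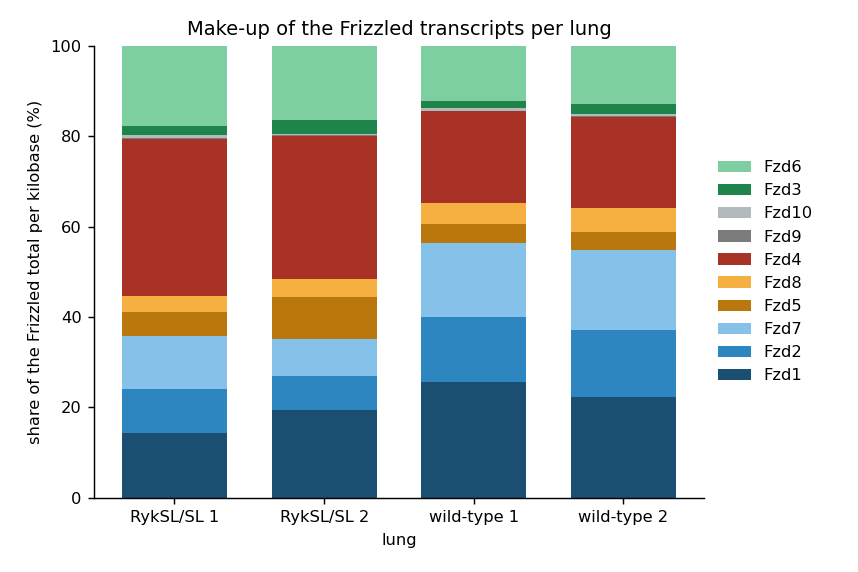
Share of each gene in the Frizzled total per kilobase of exon (percent) in each of the 2 RykSL/SL lungs (left) and 2 wild-type lungs (right). The blue segments of Fzd1, Fzd2 and Fzd7 together take 35.9% and 35.2% in the mutant lungs, against 56.4% and 54.8% in the wild type, and the red segment of Fzd4 takes 34.8% and 31.7% in the mutant lungs, against 20.2% and 20.1% in the wild type.

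The order of the levels per kilobase differed as well, and parts of it rest on the lengths taken. In the mutant lungs Fzd4 led with a mean of 438 per kilobase, followed by Fzd6 (223), Fzd1 (216), Fzd7 (134.5), Fzd2 (115), Fzd5 (90.4), Fzd8 (50.1), Fzd3 (32.6), Fzd10 (6.46) and Fzd9 (2.62). In this order Fzd6 and Fzd1, Fzd7 and Fzd2, and Fzd2 and Fzd5 overlapped between lungs. In the wild-type lungs the order was Fzd1 (362), Fzd4 (305), Fzd7 (258), Fzd2 (221), Fzd6 (190), Fzd8 (77.6), Fzd5 (62.2), Fzd3 (27.4), Fzd10 (8.0) and Fzd9 (1.96), and no neighbours overlapped. For Fzd3 the length within the deposited extent was 4227 bases, against 12734 for its longest GENCODE transcript. With the longest transcripts or with no division by length Fzd3 kept its place. With no division Fzd4 led in the wild type too (28.28% of the total, against 20.98% for Fzd1). Fzd5 then exceeded Fzd8 in the wild type (5.93% and 3.576%), as it did with the longest transcripts (4.227% and 2.951%).

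The summed endothelial markers lay above wild type, like Fzd4, in mutant replicate 1 and below it, unlike Fzd4, in mutant replicate 2. The 7 endothelial markers summed to 34567 and 20487 in the mutant lungs, against 27280 and 30260 in the wild type, with 0 of 7 called. Relative to the wild-type mean this was 120% and 71.2% in the mutant lungs, where Fzd4 stood at 169% and 118%. Fzd4 amounted to 10.03% and 11.8% of the endothelial sum in the mutant lungs, against 7.46% and 6.83% in the wild type, so it was higher relative to the sum in both mutant lungs. Mutant replicate 1 had the higher value of the mutant lungs both in Fzd4 and in the endothelial sum. In mutant replicate 1, 4 of the 7 endothelial markers lay above both wild-type lungs and 3 below both, and in mutant replicate 2 all 7 lay below both.

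The 6 fibroblast and mesenchyme markers summed to 38361 and 41596 in the mutant lungs, against 56060 and 54190 in the wild type, which is 69.6% and 75.5% of the wild-type mean in the mutant lungs. Of these markers 1 was called, Pdgfra, which rose, with 3260 and 5235 in the mutant lungs, against 1363 and 1682 in the wild type. Fzd1 stood at 58.1% and 61.0%, Fzd2 at 66.1% and 38.5%, and Fzd7 at 67.8% and 36.6% of the wild-type mean in the mutant lungs. The 7 epithelial markers summed to 84.2% and 68.2% in the mutant lungs, with 0 of 7 called, where Fzd5 stood at 123% and 168% and Fzd8 at 69.4% and 59.7%. That sum is mostly Sftpc, a surfactant protein gene with 179120 and 135559 in the mutant lungs, against 220945 and 200581 in the wild type. The median over the 7 epithelial markers was 116% and 76.3% of the wild-type mean in the mutant lungs, so mutant replicate 1 lay below wild type by the sum and above it by the median. The 5 smooth muscle and pericyte markers summed to 137% and 66.5%. Mesothelial markers summed to 8191 and 17766 in the mutant lungs, against 13011 and 11350 in the wild type, and leukocyte markers to 1471 and 1234 in the mutant lungs, against 2044 and 1826 in the wild type. No list had a marker at 0 in every lung. The part of cell composition in the Frizzled differences was not tested.

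**Figure D4:**
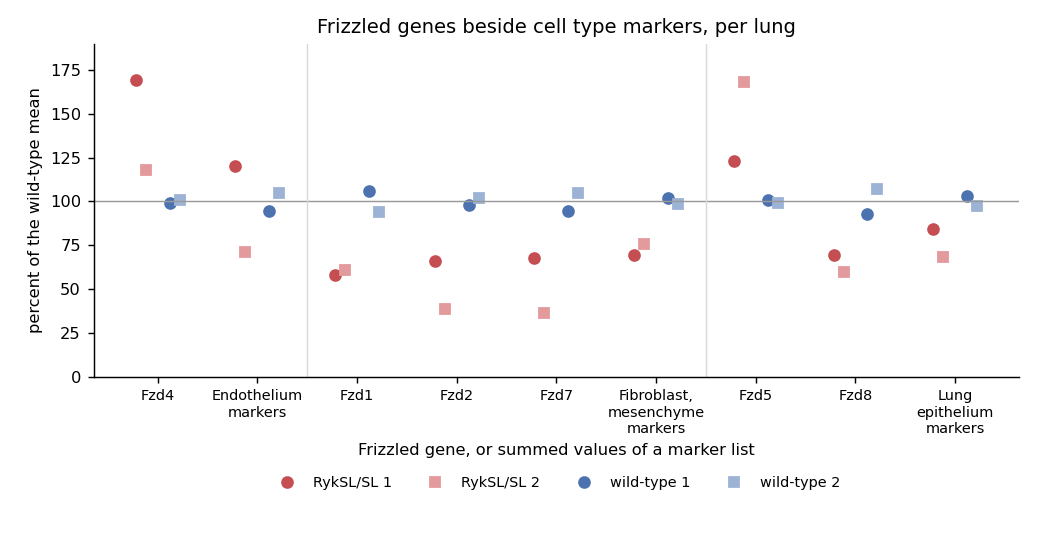
Values of 6 Frizzled genes and summed values of 3 marker lists as percent of the wild-type mean, in each of the 2 RykSL/SL lungs (red, left) and 2 wild-type lungs (blue, right). Fzd4 stands at 169% and 118% in the mutant lungs where the endothelial sum stands at 120% and 71.2%, and Fzd1 at 58.1% and 61.0% where the mesenchymal sum stands at 69.6% and 75.5%.

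The ligands of the receptors were in part lower in the mutant. Of 20 listed ligand genes 11 were tested, of which 2 fell and 0 rose, and 4 reached an unadjusted p under 0.05. The list median was -0.30 on the log2 scale against -0.02 over all tested genes. Among all tested genes 0.917% fell, 1.47% rose and 20.1% reached that unadjusted p. These shares are the background of the lists below as well. Wnt5a, best known for signalling that bypasses beta-catenin, had 481 and 399 normalized counts in the mutant lungs, against 1188 and 1116 in the wild type (log2 fold change -1.39, 95% interval -1.78 to -1.01, limma, adjusted p = 0.0184). Wnt7a, an epithelial ligand, had 103 and 86 in the mutant lungs, against 278 and 279 in the wild type (-1.55, adjusted p = 0.0230). Wnt2, a mesenchymal ligand of the distal lung, had 413 and 193 in the mutant lungs, against 1132 and 1003 in the wild type (-1.91, adjusted p = 0.0551). Norrin, the ligand of Fzd4 that is no WNT protein, is encoded by Ndp, which had 2 and 0 in the mutant lungs, against 20 and 9 in the wild type and lay under the filter.

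Of 12 tested co-receptors and partners 0 were called (1 at an unadjusted p under 0.05), with a median log2 fold change of -0.22. Besides Ryk, the highest mean value of the list was that of the glypican Gpc3, with 3193 and 5934 in the mutant lungs, against 5676 and 4738 in the wild type. The co-receptor Lrp5 had 1705 and 1177 in the mutant lungs, against 844 and 1047 in the wild type (log2 fold change 0.59), and Tspan12, a membrane protein that aids norrin signalling, had 966 and 537 in the mutant lungs, against 1064 and 960 in the wild type (-0.49). Ndp, Lrp5 and Tspan12 were picked out after their values were seen.

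The next list holds proteins that set how much Frizzled reaches and stays on the cell surface. Of 11 tested genes 2 fell and 0 rose (7 at an unadjusted p under 0.05), with a median of -0.65. Among all tested genes 0.917% fell and 20.1% reached that unadjusted p. Shisa2, which holds immature Frizzled and FGF receptors in the endoplasmic reticulum (chromosome 14, positions 59625281 to 59631658), had 58 and 47 normalized counts in the mutant lungs, against 627 and 649 in the wild type. Its log2 fold change was -3.59 with a 95% interval of -4.05 to -3.12 (limma, adjusted p = 0.00415). Rspo2 is a secreted protein that keeps the ligases ZNRF3 and RNF43 from removing Frizzled. It had 31 and 11 in the mutant lungs, against 135 and 138 in the wild type (-2.81, adjusted p = 0.0452). The ligase gene Znrf3 had 604 and 675 in the mutant lungs, against 535 and 569 in the wild type (0.21, adjusted p = 0.472), and Rspo1 had 274 and 496 in the mutant lungs, against 425 and 410 in the wild type (-0.18).

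Among secreted proteins with a Frizzled-type cysteine-rich domain, which bind WNT proteins away from the receptor, 2 of 5 were tested and 0 called (0 at an unadjusted p under 0.05), with a median of -0.09. Sfrp1 had 556 and 1013 in the mutant lungs, against 506 and 441 in the wild type (0.67, limma, adjusted p = 0.268). Its log2 fold change was 1.099 without mutant replicate 1 and 0.235 without mutant replicate 2. Sfrp2 had 172 and 396 in the mutant lungs, against 501 and 447 in the wild type (-0.86, adjusted p = 0.276). Of 3 other membrane proteins with such a domain 2 were tested and 0 called (2 at an unadjusted p under 0.05), with a median of 0.17. They were the hedgehog transducer Smo, with 1035 and 975 in the mutant lungs, against 1302 and 1328 in the wild type, and the protease Corin, with 112 and 103 in the mutant lungs, against 73 and 57 in the wild type.

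Of 11 cytoplasmic partners 1 rose and 0 fell (2 at an unadjusted p under 0.05), with a median of 0.18. Among all tested genes 1.47% rose. Gnas, which encodes a stimulatory G protein subunit, had 761 and 676 in the mutant lungs, against 303 and 333 in the wild type (1.17, limma, adjusted p = 0.0266). Its value is uncertain, because genes on the opposite strand overlap 2457 of its 11186 exonic bases. With either strand counted, 18.6% of its 50-base sequences occur in other genes, a share that is not separate from this overlap. Beta-catenin itself, Ctnnb1, had 15351 and 12097 in the mutant lungs, against 15596 and 15827 in the wild type, and the formin Daam1 had 2297 and 1933 in the mutant lungs, against 2108 and 2120 in the wild type. Of 6 beta-catenin targets 0 were called, 3 reached an unadjusted p under 0.05 (20.1% of all tested genes did) and the median was -0.13. Nkd1 stood at 2445 and 1605 in the mutant lungs, against 1454 and 1729 in the wild type. Axin2 stood at 693 and 947 in the mutant lungs, against 727 and 731 in the wild type. Notum (log2 fold change -1.525), Sp5 (-1.77) and Tcf7 (-0.41) lay lower in both mutant lungs than in either wild-type lung. Lef1 (0.22) lay higher in both. Among all tested genes 52.6% did not overlap between genotypes. No gene of the table passed when mutant replicate 2, wild-type replicate 1 or wild-type replicate 2 was left out (5249, 917 and 1133 genes at an unadjusted p under 0.05 in limma), so the calls on Wnt5a, Wnt7a, Shisa2, Rspo2 and Gnas were lost there with all others. With each lung left out in turn the log2 fold change stayed between -3.73 and -3.44 for Shisa2, between -3.52 and -2.10 for Rspo2 and between -1.68 and -1.43 for Wnt7a. It stayed between -1.53 and -1.26 for Wnt5a and between 1.09 and 1.26 for Gnas. Without the mean-variance trend the calls ended for Gnas (limma, adjusted p = 0.07196), Wnt5a (0.06284), Wnt7a (0.05368) and Rspo2 (0.09653), and that for Shisa2 held (0.04063). Quantile normalization ended the call of Rspo2 (0.05697). With every gene kept that had reads in any lung, all 5 calls ended (0.2216 to 0.24).

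**Figure D5:**
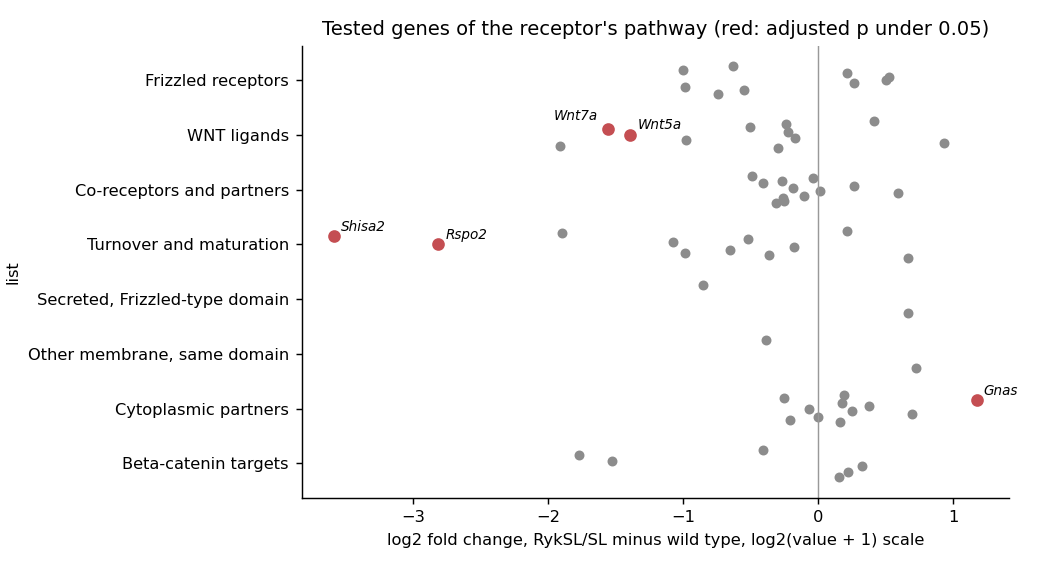
Log2 fold change (RykSL/SL minus wild type, log2(value + 1) scale) of the tested genes of the Frizzled family and of 7 lists of ligands, partners and targets, 1 point per gene, with genes called by limma in red. Shisa2, Rspo2, Wnt7a and Wnt5a lie below 0 and Gnas above, and 0 of the 9 Frizzled genes are called.

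Genes that varied most like Fzd1 were sought by the distance between log2(value + 1) profiles over the 4 lungs, each centred on its mean, among 12796 other protein-coding genes whose mean reached 50. The nearest were Fam109b (distance 0.0159), with 86 and 89 in the mutant lungs, against 156 and 138 in the wild type, and 4833423E24Rik (0.0586), with 97 and 101 in the mutant lungs, against 172 and 162 in the wild type. Tmem185b (0.0718) had 158 and 172 in the mutant lungs, against 288 and 248 in the wild type. No other Frizzled gene was among these 3, which says little about the family where only 3 of 12796 genes were listed.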

How the data were processed

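Messenger RNA libraries were made from 3 micrograms of total RNA per left lung lobe with a stranded kit, per the labels' protocols. The submitters' processing notes list FastQC, STAR 2.4.0a, featureCounts 1.5.1 (Subread), DESeq2 1.14.1 and, as builds, mm10 and GRCm38. The strand setting of the counting and the handling of multi-mapped reads were not given in the sources used here. Deposited values, treated as a score, are normalized counts that the authors scaled between libraries and rounded. All are whole, and the raw counts were not used here, so no count model was run. A value under about 10 rests on few reads.

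The test was limma 3.58.1 (R 4.3.3) as a two-sided test with variances that follow the mean, applied to log2(value + 1) in all 4 libraries, for genes with a mean of at least 10. The fold changes understate the change of low genes. The fit was tested on simulated data with equal spread in all lungs and planted changes larger than those of the Frizzled genes. That run cannot show how well changes of their size are found. Alternatives were pseudocounts of 0.5 and 5, a filter that dropped only genes without reads in any lung, and a mean of at least 50. Others were no trend, quantile normalization, scaling to the library total, each lung left out, and the replicate number as a block. Gene lengths are GENCODE M21 exons within the deposited extents. Coordinates are those of the deposited table, or of RefSeq for promoters. Members and lists were chosen with earlier results of these data known. All 10 members were named. Of each list the called genes and the 2 with the highest mean were named, and for the member with the smallest p the 3 genes of nearest profile. Beyond this rule, all beta-catenin targets were named after their values were seen. Python 3.11.15 with pandas 2.3.3, numpy 2.4.6, Biopython 1.88 and matplotlib 3.10.9 was used for the rest.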

Additional observations from a re-analysis of the deposited data

How the results depend on the processing

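Of the Frizzled genes, 0 were called in limma with all lungs and 1, Fzd1, after quantile normalization or after scaling to the library total. With each lung left out the count ran between 0 and 3, the 3 being Fzd2, Fzd5 and Fzd7 without mutant replicate 1. Over all genes, 440 were called. The count was 72 without the mean-variance trend and 0 when every gene was kept (4876 at an unadjusted p under 0.05), and ran between 0 and 2385 with each lung left out. With the replicate block, which pairs lungs by the number in their titles, it was 766, with 0 Frizzled genes. The log2 difference of replicate 1 minus replicate 2 in the mutant correlated at -0.058 over genes with that in the wild type. This value cannot tell whether same-numbered lungs share a litter or a batch. The signs of 7 Frizzled genes held under every alternative run. With each lung left out, the log2 fold change of Fzd6 ran from -0.039 to 0.46 and that of Fzd10 from -1.429 to 0.337. Of the other named genes whose sign turned, Gpc3 ran from -0.699 to 0.194, Rspo1 from -0.606 to 0.248, Axin2 from -0.073 to 0.377, Daam1 from -0.129 to 0.12 and Ryk from -0.198 to 0.126. The causes were not tested. With 2 lungs per genotype the intervals of the Frizzled genes are wide, and Fzd9 and Fzd10 are limited by few reads.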
